A study of Homo sapiens with 6 samples.

Results

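The cytoplasmic ribosomal protein genes encode the proteins that, with ribosomal RNA, build the ribosome, the machine that translates mRNA in the cytoplasm. Their proteins are needed in matched amounts, each cell devotes a large effort to making them, and their mRNAs are regulated as a group: most begin at a C followed by a run of pyrimidines, the terminal oligopyrimidine tract, through which the mTOR pathway and LARP1 control their translation. A few members have a close relative in the genome, a paralog, whose protein can take the same place in the ribosome. Protein-coding genes of the deposited table were taken as members when their symbol began with RPL, RPS or RPLP and a number, with at most a suffix A, X, L, L1 or AL, or was RPSA or FAU. This gave 85 genes of 29185 genes in the table, of which 33 belong to the small subunit and 52 to the large one. The members lie on 21 chromosomes, with 12 of them on chromosome 19. RPL10L, a paralog of RPL10, is not in the table.

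The cells were SKOV3, an established human ovarian cancer line. In the sh-KLF5 group the transcription factor KLF5 was silenced by a short hairpin RNA stably expressed from a lentiviral pLKO vector, and the sh-NC group carried the control vector (labelled WT for KLF5). Each group had 3 RNA-seq libraries, and both groups went through viral infection and puromycin selection. A single hairpin construct was sequenced and no rescue with restored KLF5 was included, so an effect of the hairpin itself cannot be told apart from that of KLF5 loss. No source used here says that the 3 libraries of a group came from separate cultures, so p-values measure the spread between these libraries, which may be technical. The comparison asks what silencing KLF5 did to the mRNA of each ribosomal protein.

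Values are read counts divided by a size factor per library, called normalized counts below, and fold changes are on the log2(normalized count + 1) scale, sh-KLF5 over sh-NC. KLF5 stood at 4371, 4425 and 4494 normalized counts in the sh-NC libraries and at 1745, 1439.9 and 1436 in the sh-KLF5 libraries, a log2 change of -1.53 (limma, Benjamini-Hochberg adjusted p = 2.5e-07). The libraries held 15852319 to 17543896 reads. Of 6 markers of epithelial ovarian cancer cells, all had reads in every library, from 92 to 143 for EPCAM to 16808 to 34506 for KRT7. The keratins KRT7, KRT8 and KRT18 fell in sh-KLF5, with log2 fold changes of -0.78, -1.17 and -0.64 (limma, adjusted p = 0.00112, 4.35e-05 and 0.00343), while ERBB2, PAX8 and EPCAM, at -0.33, -0.25 and -0.03, did not pass the test. The part of this in the values of the ribosomal protein genes was not tested. PTPRC and LYZ, markers of blood cells, had at most 1 read in any library. The endothelial marker PECAM1 had 31 to 75 reads per library, while VWF and CDH5 had at most 10 and 3. In bulk RNA, fewer cells of a kind and less RNA per cell cannot be told apart.

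Sequence around the start site shows how alike the members are, and how the gene that changed most departs from that. RefSeq promoters on GRCh38.p14 matched 68 of the 85 members. A C followed by at least 4 further C or T, starting within 5 bases of the annotated start, was present in 56 of these 68 genes (82.4%), against 28.9% of 12352 protein-coding genes of the table with a promoter entry. The windows below run from 15 bases before the start to 15 bases into the transcript, 5′ to 3′ on the gene's strand. Capitals mark the pyrimidine run from such a C onward. The run was counted from that C even where further C or T preceded it, as in RPL36AL and RPL36A. They are shown for the 3 members that passed the test below (RPS27L, RPLP1 and RPL39), for RPS27, whose paralog RPS27L is, and for 2 other paralog pairs.
RPS27L, chr15:63157463-63157492, minus strand: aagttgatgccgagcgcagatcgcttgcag
RPS27, chr1:153990747-153990776, plus strand: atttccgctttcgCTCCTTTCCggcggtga
RPLP1, chr15:69452803-69452832, plus strand: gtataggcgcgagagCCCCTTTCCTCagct
RPL39, chrX:119791616-119791645, minus strand: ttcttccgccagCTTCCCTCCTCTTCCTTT
RPL22, chr1:6199581-6199610, minus strand: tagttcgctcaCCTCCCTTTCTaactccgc
RPL22L1, chr3:170870181-170870210, minus strand: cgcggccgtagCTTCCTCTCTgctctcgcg
RPL36A, chrX:101390996-101391025, plus strand: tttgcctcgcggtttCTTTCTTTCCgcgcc
RPL36AL, chr14:49620612-49620641, minus strand: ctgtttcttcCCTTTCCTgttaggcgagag
RPS27L was the only gene of these 8 without the run. It was 1 of 12 matched members that lacked it, with RPL6, RPL7L1, RPL9, RPL15, RPL17, RPL26L1, RPL27, RPS4X, RPS15, RPS26 and RPS29. The 56 members with the run had a median log2 fold change of 0.10 and the 12 without it one of 0.10.

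Few of the ribosomal protein mRNAs changed when KLF5 was silenced. They took 2.48%, 2.30% and 2.61% of all reads in the sh-NC libraries and 2.42%, 2.65% and 2.77% in the sh-KLF5 libraries, so the groups overlapped (2.46% ± 0.157 against 2.61% ± 0.177, SD, n = 3 each). Of the 85 members, 84 had enough reads to be tested among 15803 genes, and the other one was RPL3L. By limma with Benjamini-Hochberg adjustment over all genes tested, 3 members were higher in sh-KLF5 at an adjusted p under 0.05, namely RPS27L, RPLP1 and RPL39, which is 3.57% of those tested. Over all genes tested, 6.04% were called higher. No member was called lower, against 6.85% of all genes, and none was lower at an unadjusted p under 0.05, where 13.4% of all genes were. At that level 14 members were higher (12.8% of all genes). On the recovered reads, edgeR called 3 members higher and 0 lower (6.32% and 6.93% of all genes). DESeq2 called 4 higher and 0 lower (6.9% and 7.47% of all genes), the additional one being RPL10.

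The size of the changes was small as well. The fitted log2 fold changes of the members ran from -0.36 to 1.12 with a median of 0.09, while the median over all genes tested was 0.00. Of the 84 members, 82 (97.6%) stayed within 0.5 of 0, against 78.9% of all genes tested, many of which are less abundant. The 2 members outside that bound were RPS27L and RPLP1. With the fold threshold of the study's methods, a log2 change beyond 1, RPS27L alone was called. Over all genes, 1.9% passed that threshold upward and 3.37% downward. For 14 members (16.7%) the lowest sh-KLF5 library exceeded the highest sh-NC library, near the 15.4% of all genes for which this held. The reverse was true of 0 members and of 15.9% of all genes.

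**Figure D1:**
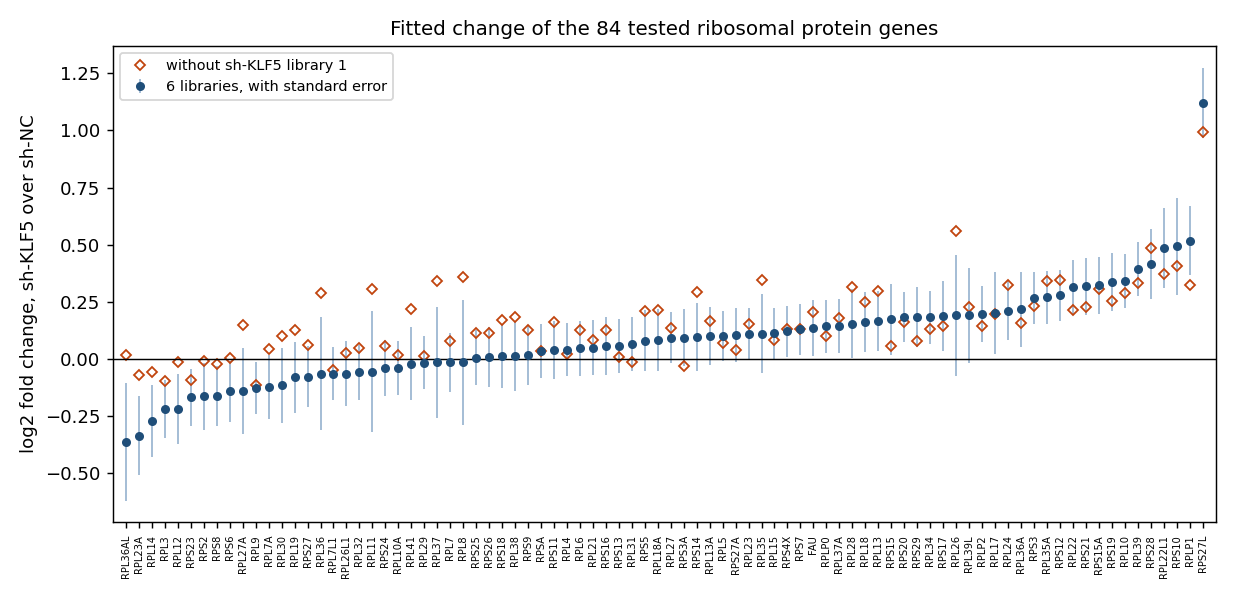
Fitted log2 fold change (sh-KLF5 over sh-NC, vertical axis) of each of the 84 tested ribosomal protein genes, ordered along the horizontal axis. Filled circles with bars give the fit on 6 libraries and its standard error, and open diamonds the fit without sh-KLF5 library 1. RPS27L, at 1.12, stands apart at the right, and most of the diamonds lie above 0.

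RPS27L encodes a protein of the small subunit closely related to RPS27, and its gene is known as a target of the tumour suppressor p53. Whether p53 had any part in the values of RPS27L here was not tested. Its gene lies at chr15:63125872-63158021 on the minus strand (GRCh38, GENCODE 29 coordinates as in the table). RPS27L had 706, 510.4 and 607 normalized counts in the sh-NC libraries and 1569.6, 1349.7 and 1066 in the sh-KLF5 libraries. Every sh-KLF5 library was above every sh-NC library, and the lowest of them was well clear of the highest control. The means were 608 ± 97.7 and 1328 ± 253 (SD, n = 3 each), a log2 fold change of 1.12 with a standard error of 0.15 (limma, adjusted p = 9.7e-05). Without sh-KLF5 library 1 the log2 fold change was 0.99 (adjusted p = 2.84e-05). The call held in all 22 alternative fits, in which the log2 fold change ranged from 0.99 to 1.27.

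RPS27, the main form of this protein, was not called. RPS27 had 4067, 3384 and 3771 normalized counts in sh-NC and 2912, 3765 and 4023 in sh-KLF5, so the groups overlapped and the log2 fold change was -0.08 ± 0.13 (SE, adjusted p = 0.76). Both genes have a coding length of 252 bases. Reads of the whole gene were divided by this length. RPS27L then stood at 2412 ± 388 normalized counts per coding kb in sh-NC against 14843 ± 1359.6 for RPS27, and in sh-KLF5 at 5271 ± 1002 against 14153 ± 2307 (SD, n = 3 each). Reads outside the coding part are included, and the annotated transcript is 6434 bases for RPS27L and 359 for RPS27. Counts of the longer RPS27L may therefore overstate its level beside RPS27, in these figures and in the shares that follow. RPS27L made up 14.8%, 13.1% and 13.9% of the pair's summed counts in the sh-NC libraries, and 35%, 26.4% and 20.9% in the sh-KLF5 libraries. All 3 sh-KLF5 shares lay above the control range, with the highest in sh-KLF5 library 1, where RPS27 was also at its lowest. The two-sided exact permutation p for the difference was 0.1, the smallest that 3 libraries against 3 can give. Short reads could in part not be assigned to RPS27 alone: 66.5% of the 50-base windows of its transcript also occur in transcripts of other genes, against 2.32% for RPS27L.

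No other paralog pair had a share that separated the groups. RPL22L1, whose protein replaces that of RPL22 in some cells, had 153, 126 and 141 normalized counts in sh-NC and 229, 169 and 194 in sh-KLF5. The sh-KLF5 libraries were all higher, with a log2 fold change of 0.48 ± 0.18 (SE) that did not pass the test (limma, adjusted p = 0.0838). RPL22 had 1374, 1227 and 1314 in sh-NC and 1860.1, 1521 and 1503 in sh-KLF5, again without overlap (log2 fold change 0.31 ± 0.12, adjusted p = 0.104). Since both members leaned the same way, the share of RPL22L1 in the pair came to 9.67% ± 0.339 for sh-NC and 10.8% ± 0.727 for sh-KLF5 (exact permutation p = 0.2).

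RPL36AL, the paralog of RPL36A, had the lowest log2 fold change of any member, -0.36 ± 0.26 (SE, limma adjusted p = 0.423). It had 742, 766 and 826 normalized counts in sh-NC and 357, 835 and 741 in sh-KLF5, so sh-KLF5 library 1 alone was low, and without that library the log2 fold change was 0.02. RPL36A had 176, 161 and 169.8 in sh-NC and 213, 207 and 171 in sh-KLF5. The share of RPL36AL in this pair stood at 80.8%, 82.7% and 82.9% in sh-NC, against 62.6%, 80.2% and 81.2% in sh-KLF5. RPL26L1 stood at 314, 351 and 322 in sh-NC and at 277, 321 and 348 in sh-KLF5 and so overlapped. RPL26 had 612, 613 and 465 in sh-NC and 381, 805 and 843 in sh-KLF5. Its sh-KLF5 libraries lay on both sides of the controls. Their pair share was 37.1% ± 3.54 and 33.3% ± 7.66 (exact permutation p = 0.6).

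RPL7L1, a relative of RPL7 that works in ribosome assembly, was at 4594 ± 389 and 4391 ± 303 normalized counts (log2 fold change -0.06, adjusted p = 0.774), beside -0.01 for RPL7. RPL39L, the paralog of RPL39 known from testis and some tumours, had 134, 98.5 and 177 in sh-NC and 144, 156 and 155 in sh-KLF5. It overlapped between groups and took 3.84% ± 1.09 and 3.29% ± 0.381 of its pair. RPL3L, the form of RPL3 found in striated muscle, had 1, 0 and 4 reads in sh-NC and 3, 6 and 2 in sh-KLF5. These are at or close to the 3 reads that a count of 0 allows, so no fold change is given.

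**Figure D2:**
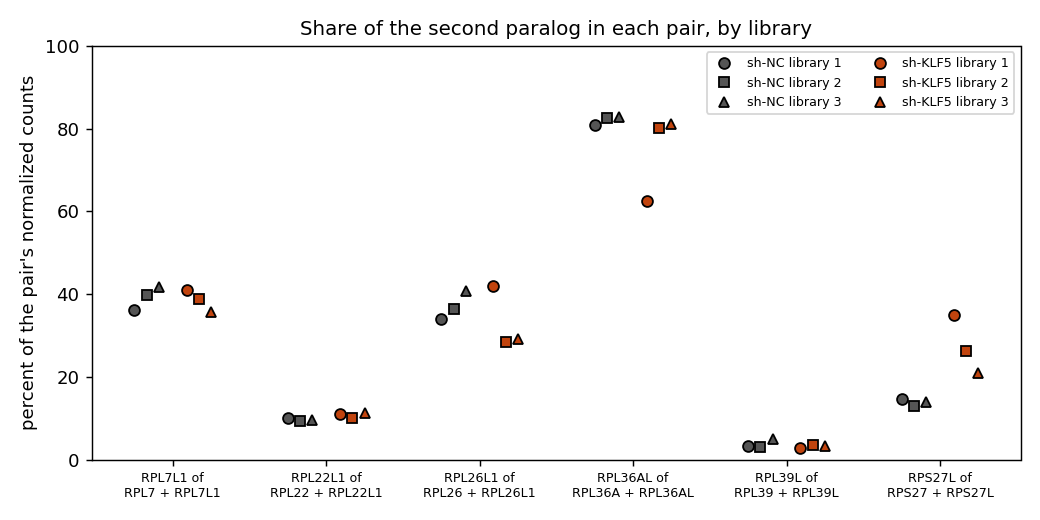
Share of the second paralog in the summed normalized counts of each pair (vertical axis, percent), with 1 symbol per library, grey for sh-NC and orange for sh-KLF5. RPS27L takes 13.1 to 14.8% in sh-NC and 20.9 to 35% in sh-KLF5, RPL36AL is low in sh-KLF5 library 1 alone, and the groups of the other 4 pairs overlap.

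The stalk of the large subunit, which recruits translation factors, is made of RPLP0 with the small acidic proteins RPLP1 and RPLP2. RPLP1, at chr15:69452784-69456194 on the plus strand, had 11259, 9875 and 12108 normalized counts in sh-NC and 20638, 13614 and 14036 in sh-KLF5. All sh-KLF5 libraries were higher, and library 1 was far above libraries 2 and 3. The log2 fold change was 0.52 ± 0.15 (SE, limma adjusted p = 0.0324) with that library and 0.32 (adjusted p = 0.0352) without it. The call was lost when any 1 of the 3 sh-NC libraries was left out. RPLP2 had 2815, 2559 and 3331 in sh-NC and 3568, 3108 and 3268 in sh-KLF5, and overlapped (log2 fold change 0.20, adjusted p = 0.335). RPLP0 was at 25153 ± 1913 and 27755 ± 1957 normalized counts, a log2 fold change of 0.14 (adjusted p = 0.476). Whether RPLP1 changed more than its partners was not tested.

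RPL39, a very small protein that lines the exit tunnel of the large subunit, is encoded at chrX:119786504-119791643 on the minus strand. RPL39 had 3845, 3111 and 3307 normalized counts in sh-NC and 4874, 4194 and 4379.6 in sh-KLF5. The groups did not overlap, and the sh-KLF5 libraries were close to each other. The log2 fold change was 0.39 ± 0.12 (SE, limma adjusted p = 0.0396) and 0.33 (adjusted p = 0.0268) without sh-KLF5 library 1. Leaving out any other single library ended the call. RPL10, which joins the large subunit late in its assembly, was next by p: it had 3033, 2965 and 3531 in sh-NC and 4315, 3708 and 4026 in sh-KLF5, without overlap, and a log2 fold change of 0.34 that missed the threshold (adjusted p = 0.0692). Exons of other genes overlap 55.5% of its exonic bases, on the same or the opposite strand.

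**Figure D3:**
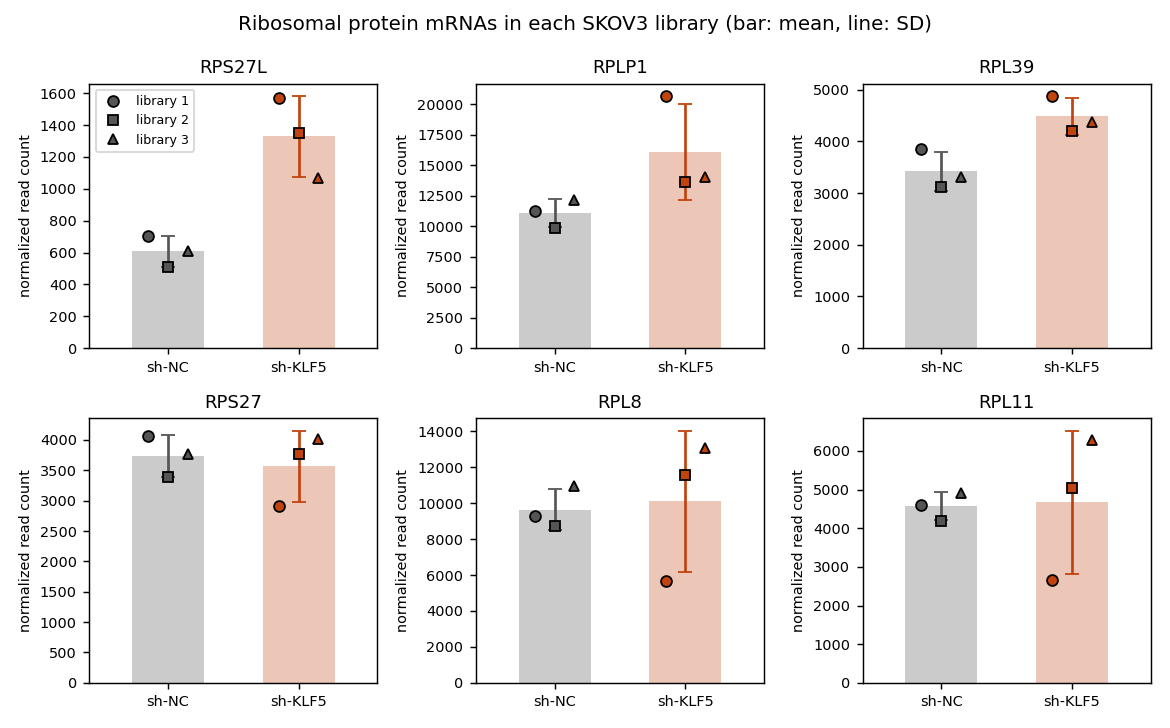
Normalized read counts (vertical axis, from 0) of 6 ribosomal protein genes in the 3 sh-NC and 3 sh-KLF5 libraries; bars are means, lines the SD, and symbols mark the library number. RPS27L, RPLP1 and RPL39 are higher in every sh-KLF5 library, RPS27 overlaps, and RPL8 and RPL11 split, with library 1 low and libraries 2 and 3 above the control mean.

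Among the small subunit proteins, RPS27L was the only one of 33 tested that passed the test. The median log2 fold change of the small subunit was 0.10, and 27 of its 33 genes leaned upward. RPS10, a protein of the head of the small subunit, had 69.8, 58.1 and 67.9 normalized counts in sh-NC and 104, 91.2 and 82.2 in sh-KLF5 (log2 fold change 0.49, adjusted p = 0.15). Its low level goes with the RPS10-NUDT3 read-through gene, which covers 39.4% of its exonic bases, and 90.4% of its 50-base windows occur elsewhere. The part of these in its level was not tested. RPS28 had 761, 567 and 893 in sh-NC and 879.6, 1071 and 969 in sh-KLF5, where library 1 lay just below the highest control (log2 fold change 0.41, adjusted p = 0.0905). RPS19, mutated in Diamond-Blackfan anaemia, had 6737, 6138 and 8028 in sh-NC and 9821, 8138 and 8373 in sh-KLF5, without overlap (log2 fold change 0.34, adjusted p = 0.0999). RPS12 had 3182, 2977 and 3080.3 in sh-NC and 3399, 3809 and 4017 in sh-KLF5, also without overlap (log2 fold change 0.28, adjusted p = 0.123). RPS6, the substrate of the S6 kinases, did not lean upward, at 5303 ± 249 and 4861 ± 896 (log2 fold change -0.14, adjusted p = 0.548). RPS27A, made as a fusion with ubiquitin, and FAU, a fusion of RPS30 with a ubiquitin-like protein, had log2 fold changes of 0.10 and 0.13 (adjusted p = 0.624 and 0.537).

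Among the large subunit proteins, RPLP1 and RPL39 were 2 of 51 tested that passed. The median log2 fold change was 0.06, and 30 of 51 leaned upward. The 5 lowest members were all of the large subunit: RPL36AL, RPL23A, RPL14, RPL3 and RPL12, from -0.36 to -0.22, and none passed the test. RPL23A, at the tunnel exit, had 3175, 3089 and 3152 normalized counts in sh-NC and 1722, 2797 and 3188 in sh-KLF5. RPL14 had 4137, 3785 and 4333 in sh-NC and 2512, 3666 and 4190.1 in sh-KLF5. In both, sh-KLF5 library 1 was far below every other library. Without it the log2 fold changes of RPL23A and RPL14 were -0.07 and -0.06. RPL3, a core protein near the catalytic centre, had 10239, 9708 and 11099 in sh-NC and 7476, 9375 and 9963 in sh-KLF5 (log2 fold change -0.22, and -0.10 without library 1).

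Levels were compared per kb of an annotated GENCODE 29 transcript. RPL13 stood highest in sh-NC with 21811 ± 2095 normalized counts per kb (SD, n = 3), followed by RPLP0 with 20651 ± 1571, RPL41 with 16633 ± 666, RPS2 with 16556 ± 2289, RPS19 with 13247 ± 1836 and RPL7A with 10668 ± 868. RPL13 and RPLP0 differed by less than their SD, as did RPL41 and RPS2. In sh-KLF5 the same quantity was 24605 ± 3813 for RPL13, 22787 ± 1607 for RPLP0 and 16812 ± 4359 for RPL41. At the low end stood RPL3L, RPL22L1, RPS27L, RPS10, RPL17 and RPL36A, at or below 192 normalized counts per kb. The order depends on the transcript chosen. The figure for RPS27L rests on a transcript of 6434 bases, nearly all of it beyond the coding part, which is why the pair above was set out by coding length. That for RPL22L1 rests on 2190 bases, 366 of them coding. Outside this list, RPL37 was likewise scaled by 7686 bases, 291 of them coding. RPL17 is covered to 35.3% by exons of other genes, among them its read-through RPL17-C18orf32, and 90.3% of its 50-base windows occur in other genes. The part of these in its level was not tested.

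The 3 sh-KLF5 libraries did not agree on the ribosomal protein genes, and library 1 stood apart. Over all genes, comparing the counts of library 1 gave a chi-square, per degree of freedom, of 26.4 against library 2 and 34.3 against library 3, where the other within-group pairs had 4.66 to 11.6, and limma gave library 1 a weight of 0.281 against 0.775 to 1.996 for the others. Of the 79 members above 200 normalized counts, 16 were lower in library 1 than the mean of libraries 2 and 3 by over 0.5 on the log2 scale and 1, RPLP1, was higher by that much. This is 21.5% of these members, against 13.1% of 9151 other genes above that level. The same difference went beyond 0.5 for at most 7.59% of members in any other library set against the other 2 of its group.

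The members below -0.5 in that library were nearly all of the large subunit. Of the 47 large subunit genes above 200 normalized counts, 15 were below -0.5, and of the 32 small subunit genes only RPS14 was. The medians of the 2 subunits were closer, at -0.27 for the large and -0.21 for the small one. Below 0 lay 36 large subunit genes and 18 small subunit genes, so a milder lowering was not confined to the large subunit. The lowest were RPL36AL, RPL8, RPL26, RPL11 and RPL37, with differences from -1.14 to -1.07. RPL8 had 9268, 8718 and 10945 normalized counts in sh-NC and 5671, 11569.9 and 13076 in sh-KLF5, so libraries 2 and 3 were above every control and library 1 below every control. RPL37 showed the same order, with 5027, 4584 and 4897 in sh-NC and 2917, 5835 and 6425 in sh-KLF5. RPL11 and RPL5 together bind MDM2, the p53 ubiquitin ligase, and they parted in this library. The p53 pathway was not tested. RPL11 had 4589, 4193 and 4923 in sh-NC and 2654, 5053 and 6293 in sh-KLF5, while RPL5 had 7001, 6358 and 6862 in sh-NC and 7532, 6784 and 7378 in sh-KLF5. The difference of library 1 from libraries 2 and 3 was -1.09 for RPL11 and 0.09 for RPL5.

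**Figure D4:**
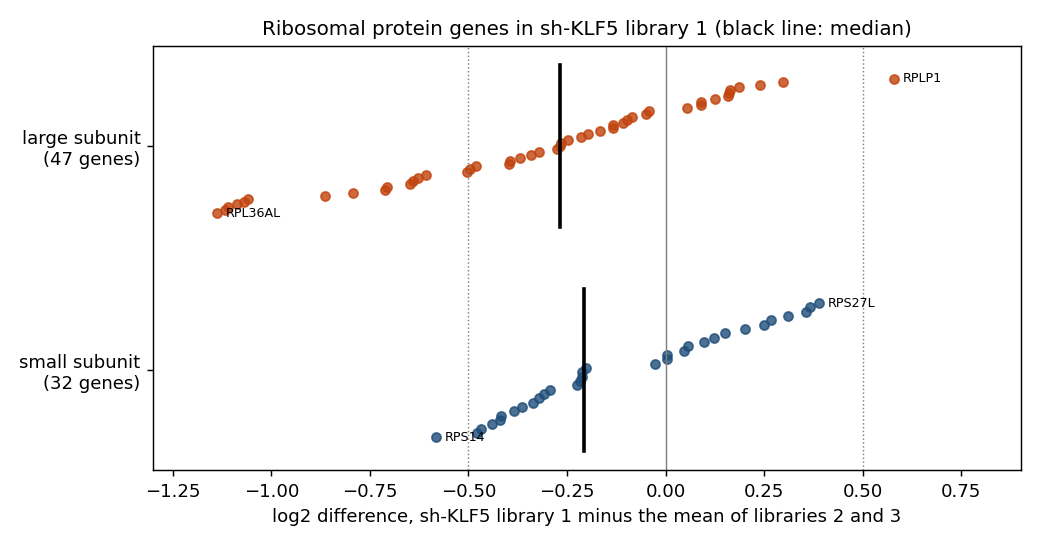
Log2 difference of sh-KLF5 library 1 from the mean of libraries 2 and 3 (horizontal axis) for the 79 ribosomal protein genes above 200 normalized counts, by subunit, with the median as a black line and dotted lines at -0.5 and 0.5. A tail of 15 large subunit genes lies below -0.5, beside 1 small subunit gene, RPS14, and RPLP1 is the only gene above 0.5.

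GC content moved with this library across genes in general. Over the 9151 other genes above 200 normalized counts, Pearson's r between the difference of library 1 and transcript GC was -0.63, and over the 79 members it was -0.13. For the other genes, the same r was between -0.40 and 0.65 in the other 5 libraries, each set against the rest of its group. Over the members it was -0.58, -0.32 and 0.64 in sh-NC libraries 1, 2 and 3. In sh-KLF5 libraries 2 and 3 it was 0.11 and 0.12. These are descriptions across genes, which share their libraries and are no independent replicates. When the members were ordered by GC and cut into 3 sets of 26 or 27, the median difference of library 1 was -0.10 in the set of lowest GC (42.1% to 47.5%), -0.32 in the middle set and -0.34 in the set of highest GC (52.3% to 63.6%).

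With sh-KLF5 library 1 left out, the upward lean of the members was larger. Their median difference in that library from libraries 2 and 3 was -0.22, over members above 200 normalized counts. Leaving it out raises the fold change of every member that was lower in it. The direction of this shift was thus set by values already seen, and the fit is no separate test of the lean. By limma, 12 members (14.3%) were then higher and 0 lower, where 7.77% of 16373 genes were called higher and 9.25% lower. The 12 were RPS27L, RPL26, RPS12, RPL37, RPL35A, RPL8, RPL39, RPL24, RPL35, RPLP1, RPS28 and RPS14. Their log2 fold changes without that library included 0.56 for RPL26 (adjusted p = 0.003), 0.36 for RPL8 (adjusted p = 0.0263), 0.34 for RPL37 (adjusted p = 0.015) and 0.35 for RPS12 (adjusted p = 0.0108). RPL26, RPL8 and RPL37 were among the members lowest in library 1. Of the 12, RPS27L, RPLP1 and RPL39 were higher in library 1 than in libraries 2 and 3, and the others were lower. The median over the members became 0.14, beside 0.00 over all genes, and 73 of 84 leaned upward. This lean depended on other libraries as well: without sh-KLF5 library 3 the median was -0.01 and 2 members were called higher, RPS27L and RPLP1 (5.87% of all genes). Without sh-NC library 2 the median was 0.02 and RPS27L alone was called higher, where 518 of 16247 genes were. In both of these fits sh-KLF5 library 1 was kept. With the trend of each library on GC content removed and all libraries kept, 13 members were called higher and 0 lower, against 11.9% and 7.66% of all genes, and the median was 0.16, beside 0.05 over all genes.

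Few genes around the ribosomal proteins in the translation and ribosome assembly pathways passed the test, beside 6.04% of all genes called higher and 6.85% lower; no list was tested against the members. Of 4 tested elongation factor genes none was called by limma, and EEF1A1, which brings aminoacyl-tRNA to the ribosome, and EEF2, which moves the ribosome along, had log2 fold changes of 0.06 and -0.11. Of 28 initiation factors 1 was higher and none lower: EIF4A2, an RNA helicase, at 4673 ± 269 in sh-NC and 6278 ± 780.4 in sh-KLF5 (log2 fold change 0.42, adjusted p = 0.0298). Of 11 other mRNAs known for a terminal oligopyrimidine tract none was called, with a median of 0.02, and PABPC1 and NPM1 stood at -0.04 and 0.15. Of 13 host genes of small nucleolar RNAs, many of which share that tract, 11 leaned upward, with a median of 0.26, and 1 passed the test, SNHG5, at 452 ± 63.2 and 641 ± 89.8 (log2 fold change 0.50, adjusted p = 0.03).

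Of 47 ribosome assembly factors 1 was higher and none lower. This was NMD3, the export adaptor of the large subunit, at 1304 ± 93.1 in sh-NC and 1772 ± 213 in sh-KLF5 (log2 fold change 0.44, adjusted p = 0.0252), while 32 of the 47 leaned downward with a median of -0.10. None of 14 genes of RNA polymerase I and its factors was called, nor any of 7 chaperones of single ribosomal proteins or of 9 regulators, among them MTOR (log2 fold change -0.27, adjusted p = 0.196) and LARP1 (-0.04, adjusted p = 0.891). Without sh-KLF5 library 1, where 7.77% of all genes were called higher and 9.25% lower, 3 of the 14 polymerase I genes were lower (POLR1B, POLR1D and TAF1B, with log2 fold changes of -0.32, -0.37 and -0.38), as was 1 of the 9 regulators, the S6 kinase gene RPS6KB1 (-0.36). In the same fit EIF4A2 and EIF6 were higher and EIF5 lower among the initiation factors, and NMD3 and EIF6 were higher and DDX21 lower among the assembly factors. SNHG5 was again the 1 host gene called, and no elongation factor, chaperone or other mRNA with the tract was called. Of 78 mitochondrial ribosomal protein genes, which build the separate ribosome of mitochondria, 0 were higher and 2 lower: MRPL19 (log2 fold change -0.41, adjusted p = 0.0313) and MRPL30 (-0.39, adjusted p = 0.0475). Without sh-KLF5 library 1, MRPL19 and MRPL30 were lower and MRPL23 higher. The median of that list was -0.01, beside 0.09 for the cytoplasmic members.

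The regions upstream of the 3 called members are given below, from 250 bases before the annotated start up to it (RefSeq, GRCh38.p14, gene's strand), since the silenced gene encodes a factor of the KLF family, which binds GC-rich and CACCC boxes. Capitals mark matches to CCNCNCCC on either strand.
RPS27L, chr15:63157478-63157727, minus strand: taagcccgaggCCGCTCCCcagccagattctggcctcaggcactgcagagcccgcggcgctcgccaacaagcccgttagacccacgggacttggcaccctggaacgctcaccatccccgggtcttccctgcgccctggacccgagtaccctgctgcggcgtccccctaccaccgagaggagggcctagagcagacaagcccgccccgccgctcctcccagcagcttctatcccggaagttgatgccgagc
RPLP1, chr15:69452568-69452817, plus strand: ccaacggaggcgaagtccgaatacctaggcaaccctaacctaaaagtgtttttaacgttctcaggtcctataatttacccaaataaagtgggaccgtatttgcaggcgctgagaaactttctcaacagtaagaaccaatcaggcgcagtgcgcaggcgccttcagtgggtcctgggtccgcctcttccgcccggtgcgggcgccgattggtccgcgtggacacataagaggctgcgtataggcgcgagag
RPL39, chrX:119791631-119791880, minus strand: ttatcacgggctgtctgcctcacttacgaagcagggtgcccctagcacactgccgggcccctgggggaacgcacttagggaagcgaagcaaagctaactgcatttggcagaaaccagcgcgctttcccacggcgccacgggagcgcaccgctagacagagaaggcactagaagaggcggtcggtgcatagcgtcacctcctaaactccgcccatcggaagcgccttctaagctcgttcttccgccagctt
RPS27L had 1 match to this motif, and RPLP1 and RPL39 had 0. In the same 250 bases, unmarked above, CCGCCC matched once in each of the 3 genes. CACCC matched once in RPS27L and in RPL39, and RPLP1 had 0 matches to it. Over the whole windows of 250 bases before and 50 after the start, 38 of the 68 matched members (55.9%) held at least 1 match, against 77.6% of the 12352 protein-coding genes. The shorter motif CCGCCC was found in 58.8% of members and 72.2% of all, and CACCC in 57.4% and 70.5%. Matches of the motifs can overlap each other. A match is a run of letters and no measured binding site, and KLF5 binding was not measured in these libraries.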

How the data were processed

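RNA-seq libraries of SKOV3 cells, 3 sh-NC and 3 sh-KLF5 as labelled, were compared. The deposited table lists 29185 genes, each with 1 normalized count per library, a signal that the authors made by dividing the reads of a gene by the size factor of the library. The submitters' processing notes name HISAT2 2.0.5, featureCounts 1.5.0-p3 and DESeq2 1.20.0, and hg38. It also holds the authors' own group means, deposited log2 fold changes and p-values, and none of these was used. Its gene coordinates are those of GENCODE 29 for 100% of genes.

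Reads were recovered from the steps of the values (100% whole within 0.001 reads). Groups were compared with limma 3.58.1 (trend, robust) in R 4.3.3 on log2(normalized count + 1), after filterByExpr of edgeR (minimum count 10), with Benjamini-Hochberg adjustment over 15803 genes. Alternatives were edgeR 4.0.16 and DESeq2 1.42.0 on recovered reads, other factors, filters and pseudocounts, trends on length or GC removed, library weights, a replicate block, and each library left out. On simulated counts limma recovered 94.4% of 197 changed genes among 15750 tested, with 10 false calls. The simulated log2 changes were all at least 1 in size. Every gene had the same dispersion (0.0184), and no library was made to deviate. Recovery of changes as small as those of most members was therefore not measured. Members and gene lists were chosen with earlier results of these data known. Members named are those called, the 5 highest and 5 lowest by fold change, the 6 highest and 6 lowest per length, the paralog pairs and the fusions RPS27A and FAU. Of other lists, the called genes with the smallest p were named, otherwise the most abundant. Other members (RPL10, RPLP2, RPL5, RPL8, RPL11, RPL24, RPL35, RPL35A, RPL37, RPS6, RPS12, RPS14 and others) were chosen after their values were seen. Counting intervals and the limit of 3 reads cover counting error only. Among the members, 44 share at least 25% of their 50-base windows with transcripts of other genes, so their counts depend on how multi-mapping reads were treated, which is not given in the sources used here.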

Additional observations from a re-analysis of the deposited data

How the results depend on the processing

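RPS27L was called higher in every one of the 22 alternative fits, RPLP1 in 19 and RPL39 in 17, and no fit called a member lower. The number of members called higher was 3 in the main comparison. It became 5 with no filter on low counts, 13 with the GC trend removed, 14 with library weights and 21 with the GC trend removed and sh-KLF5 library 1 left out. The cause was not tested. The last 3 settings were chosen after seeing the data. Calls over all genes rose as well, from 955 of 15803 higher in the main comparison. In the same order they were 1129 of 29185, 1883 of 15803, 1609 of 15803 and 1830 of 16373. Leaving out each library in turn gave 1 to 12 members higher, with 12 without sh-KLF5 library 1, 1 without sh-NC library 1 or 2, and 2 otherwise. Over all genes, 518 to 1272 were called higher in those fits. A log2 change beyond 1 was then called for 0 to 1 members, the 0 coming from the fit without sh-KLF5 library 1, in which RPS27L stood at 0.99. The median log2 fold change of the members ranged from -0.01 to 0.14, and the difference in their share of reads from 0.0676 to 0.245 percentage points, over the fits that left out a library. Over all genes, 955 were called higher and 1083 lower in the main comparison, against 1883 and 1211 with the GC trend removed and 1305 and 928 with the length trend removed.

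Replicate numbers were not treated as a pairing: libraries of the same number had correlated deviations of 0.059, 0.033 and 0.050, though each correlated best with its own number. These small values do not settle whether the libraries were paired. With the replicate number as a block, 6 members were called higher, RPL10, RPS19 and RPS28 in addition, where 1292 of all 15803 genes were. The length trend removed gave 4 without the block and 13 with it, and the GC trend removed 13 without and 14 with it. Over all genes the length trend removed gave 1305 and 1724 higher, and the GC trend removed 1883 and 2014. Against the main comparison, the block alone changed no other call among the members.

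Among the 28 named members tested, none of those called turned sign, but fold changes of others did, among them RPL36AL, RPL14 and RPL12, at -0.36, -0.27 and -0.22 in the main comparison, and RPL26 and RPL39L, both at 0.19. With a library left out, the range was -0.011 to 0.56 for RPL26, -0.14 to 0.026 for RPL26L1, -0.59 to 0.018 for RPL36AL, -0.023 to 0.40 for RPL39L, -0.15 to 0.22 for RPL41, -0.15 to 0.077 for RPL7, -0.22 to 0.043 for RPL7A, -0.12 to 0.00082 for RPL7L1 and -0.17 to 0.061 for RPS27. RPL41 moved from -0.02 to 0.012 with DESeq2, 0.014 with edgeR and 0.011 with the length trend removed, block included, and RPL7 from -0.01 to 0.034 in the last. With the GC trend removed, block included, RPL26L1 was at 0.012, RPL41 at 0.053, RPL7 at 0.027 and RPL7L1 at 0.0075. Library weights gave 0.15 for RPL41, 0.037 for RPL7, 0.014 for RPL7A and 0.014 for RPS27. The GC trend removed without sh-KLF5 library 1 gave 0.041 for RPL12, 0.0092 for RPL14, 0.12 for RPL26L1, 0.12 for RPL36AL, 0.28 for RPL41, 0.19 for RPL7, 0.10 for RPL7A, 0.054 for RPL7L1, 0.0016 for RPS2 and 0.13 for RPS27. For abundant members, depth sets the error less than the spread between 3 libraries does.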
